A study of Mus musculus with 12 samples.

Results

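On mouse chromosome 8, 5 consecutive expressed genes from Rwdd4a to Dctd were low in the 2nd and 3rd female SIRT7-knockout libraries. There they were at 45.3% to 61.3% of their wild-type (WT) level, while Trappc11, the expressed neighbour before Rwdd4a, was at 104% to 107%. The far edge is less sharp. Tenm3, the next expressed gene after Dctd, was at 75.5% and 55.8%, but single WT libraries ranged from 57.1% to 147%. These 5 genes (Rwdd4a, Ing2, Cdkn2aip, Wwc2 and Dctd) were described together with Irf2, Stox2 and Trappc11 on one side and Tenm3 and Aga on the other. The 10 genes were taken by symbol from a table of 24421 genes, and all 10 were among the 15613 with enough reads to be tested. The set was selected on the measured levels of Rwdd4a to Dctd in these same libraries, which were low in 2 of them, so the reduction itself is given as a description, with no test.

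The libraries came from primary mouse embryonic fibroblasts (MEFs, cells grown out of embryos and kept in culture for a limited time) of the C57BL6 strain. The 4 groups of 3 libraries were female WT, female SIRT7-KO, male WT and male SIRT7-KO, with no other treatment or allele in the labels. The labels name neither the allele that removes SIRT7, nor the age of the embryos, nor whether libraries of a group share an embryo or a litter. SIRT7, a sirtuin, is an NAD-dependent enzyme of the nucleus that removes acyl groups from proteins, and the series asks what its loss does to dosage compensation, the balancing of X-linked expression between the sexes.

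Libraries held 41989269 to 46031948 counts. Sirt7 checked every genotype label, with 1.58 to 1.997 CPM (read counts scaled by the TMM-adjusted library total) in the 6 KO libraries and 25.1 to 34.6 CPM in the 6 WT libraries. Of 10 fibroblast markers, 7 were at 280 CPM or more in every library (among them Col1a1 at 2750 to 4580 CPM), while Pdgfra ranged from 23.9 to 407 CPM, Dcn from 7.09 to 142 CPM and Lum from 1.35 to 85.2 CPM. Macrophage markers reached between 2.07 CPM (Ptprc) and 49.5 CPM (Lyz2) in their highest library, and endothelial markers between 0.855 CPM (Pecam1) and 9.89 CPM (Kdr). Female_KO 1 and Male_WT 3 stood apart over all tested genes, with scores of 64.7 and 62.3 on the first principal component of log2 CPM (30.3% of the variance) against -31.9 to 14.6 for the other 10 libraries. In a chi-square comparison of counts, sampling noise gives about 1 per degree of freedom, or more if both mates of a fragment were counted. Within the female KO group, Female_KO 2 and Female_KO 3 differed least, at 18.9 per degree of freedom, against 73.6 and 121 for the pairs with Female_KO 1. Values for Female_KO 1 are therefore given singly below, and female fits of the 10 genes are also given without it. Male fits of the block genes are also given without Male_WT 3. Female_KO 1 is also the female KO library outside the 2 low ones. Leaving it out thus sorts the group by the levels on which the genes were selected.

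The 5 genes have separate functions. Rwdd4a encodes a small protein with an RWD domain, a fold found in several regulators of translation and protein modification. Ing2 encodes a reader of trimethylated histone H3 that recruits the Sin3-HDAC1 deacetylase complex to chromatin. Cdkn2aip encodes CARF, a partner of the tumour suppressor ARF that takes part in p53 regulation. Wwc2 encodes a WW and C2 domain protein of the Hippo pathway, which restrains the growth regulators YAP and TAZ. Dctd encodes dCMP deaminase, which makes dUMP, the precursor of thymidylate for DNA synthesis.

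The neighbours differ in function as well. Irf2 is a transcription factor that counteracts IRF1 on interferon-responsive promoters, and Stox2 encodes a storkhead-box protein. Trappc11 is a subunit of the TRAPP complex of membrane traffic. Tenm3 encodes a teneurin, a cell adhesion protein best known for wiring of the visual system, and Aga encodes the lysosomal enzyme that cleaves asparagine from sugars of glycoproteins.

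By RefSeq on GRCm38.p6, Rwdd4a (chromosome 8, 47533645 to 47552837, plus strand) is followed by Ing2 (47667178 to 47675159, minus), Cdkn2aip (47709344 to 47713931, minus), Wwc2 (47826082 to 47990544, minus) and Dctd (48099092 to 48141667, plus). From the start of Rwdd4a to the end of Dctd the stretch covers 608 kb. Irf2 (46739745 to 46847458, plus), Stox2 (47180048 to 47413847, minus) and Trappc11 (47490128 to 47533470, minus) lie before it. Tenm3 (48225665 to 49522824, minus) and Aga (53511683 to 53523422, plus) lie after it. Between Irf2 and Aga the table has 14 genes, of which 11 were tested. The 3 others were the claudin genes Cldn24 and Cldn22 and Gm2516, with 0 to 2 counts per library. GENCODE M21 lists 21 genes within the 608 kb, 7 of them protein-coding, and only those 7 have a row in the table.

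The near edge falls between a pair of genes that are read away from each other. Trappc11 starts at 47533470 on the minus strand and Rwdd4a at 47533645 on the plus strand, which leaves 174 bases between their starts. The stretch is shown because Rwdd4a, on one side of it, was low in 2 libraries in which Trappc11, on the other side, was not. It is given on the plus strand, from the base next to the Trappc11 start to the base before the Rwdd4a start (chr8:47533471-47533644), with matches to the searched motifs in capitals.
Trappc11-Rwdd4a: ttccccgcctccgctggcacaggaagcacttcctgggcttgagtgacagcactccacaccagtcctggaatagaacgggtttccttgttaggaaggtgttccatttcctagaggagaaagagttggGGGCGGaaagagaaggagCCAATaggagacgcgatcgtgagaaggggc
It is 55.7% G and C, with 7 CG dinucleotides. The capitals are a GC box (GGGCGG) and a CCAAT box (CCAAT), which lie on the Rwdd4a side. Of 8 motifs searched on both strands, these 2 had a match, and the other 6 had none. The ETS core was searched as CCGGAAG. For the factor NRF1 the letters were GCGCATG. For YY1 they were AAGATGG, and for the TATA box they were TATAAA. The core of the cyclic AMP response element was searched as TGACG. For E2F the letters were TTCCCGC. The GC box is in 29.9% and the CCAAT box in 26.9% of 32851 RefSeq promoter windows of the same length. Among the 5 genes of the block, 4 had the GC box and 3 the CCAAT box in such a window at an annotated start, the exceptions being Cdkn2aip for the GC box and Cdkn2aip and Wwc2 for the CCAAT box. Dctd had 3 such windows, whereas the shares above are per window. Neighbours that were not low had these motifs too, the GC box at Irf2 and Trappc11 and the CCAAT box at Stox2 and Trappc11. None of the 8 motifs was present at all 5 block genes.

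Rwdd4a was at 32.6 and 34.7 CPM (1456 and 1545 counts) in Female_KO 2 and Female_KO 3 and at 66.2 CPM (2918 counts) in Female_KO 1. Female WT libraries had 57.4, 70.8 and 62.6 CPM, male WT libraries 66.4, 56.0 and 67.2 CPM, and male KO libraries 58.6, 57.0 and 54.6 CPM. The 2 low libraries were at 51.4% and 54.8% of the WT mean, and every other library lay at 86.1% to 114%.

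Ing2, counted less deeply, was low in the same 2 libraries. It was at 9.26 and 8.49 CPM (414 and 378 counts) in Female_KO 2 and 3, against 17.4 CPM in Female_KO 1. WT libraries had 18.5, 14.4 and 17.0 CPM in females and 16.3, 15.96 and 16.1 CPM in males, and male KO libraries had 15.8, 15.6 and 15.9 CPM. The 2 low libraries were at 56.6% and 51.9% of WT, the others at 85.6% to 116%.

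Cdkn2aip was at 7.72 and 8.96 CPM (345 and 399 counts) in Female_KO 2 and 3 and at 17.7 CPM in Female_KO 1, its highest level in any library. WT libraries had 15.8, 14.8 and 15.5 CPM in females and 14.02, 13.1 and 14.6 CPM in males, and male KO libraries had 15.3, 15.6 and 13.3 CPM. These are 52.7% and 61.3% of WT in the 2 low libraries, and 87.8% to 121% in the rest.

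Wwc2, the most deeply counted gene of the block, was at 112 and 121 CPM (5012 and 5371 counts) in Female_KO 2 and 3. Female_KO 1 had 257 CPM (11341 counts), again the highest of all 12 libraries. WT libraries had 200, 221 and 222 CPM in females and 225, 198 and 232 CPM in males, and male KO libraries had 210, 198 and 196 CPM. Female_KO 2 and 3 were thus at 51.8% and 55.7% of WT and the rest at 90.1% to 119%.

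Dctd, the last gene of the block, was at 18.1 CPM in both Female_KO 2 and Female_KO 3 (810 and 806 counts) and at 28.7 CPM in Female_KO 1. WT libraries had 38.0, 45.5 and 39.3 CPM in females and 42.9, 37.8 and 36.3 CPM in males. Male KO libraries had 32.0, 32.9 and 29.2 CPM. Unlike the other 4 genes, Dctd was lower in each of the 6 KO libraries than in any WT library. Within a sex, all KO libraries lay below all WT libraries for 9.86% of tested genes in females and 6.56% in males. The share with this order over both sexes was not computed. Female_KO 2 and 3 were at 45.4% and 45.3% of WT, Female_KO 1 was at 71.8%, and the male KO libraries were at 73.1% to 82.4%.

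**Figure D1:**
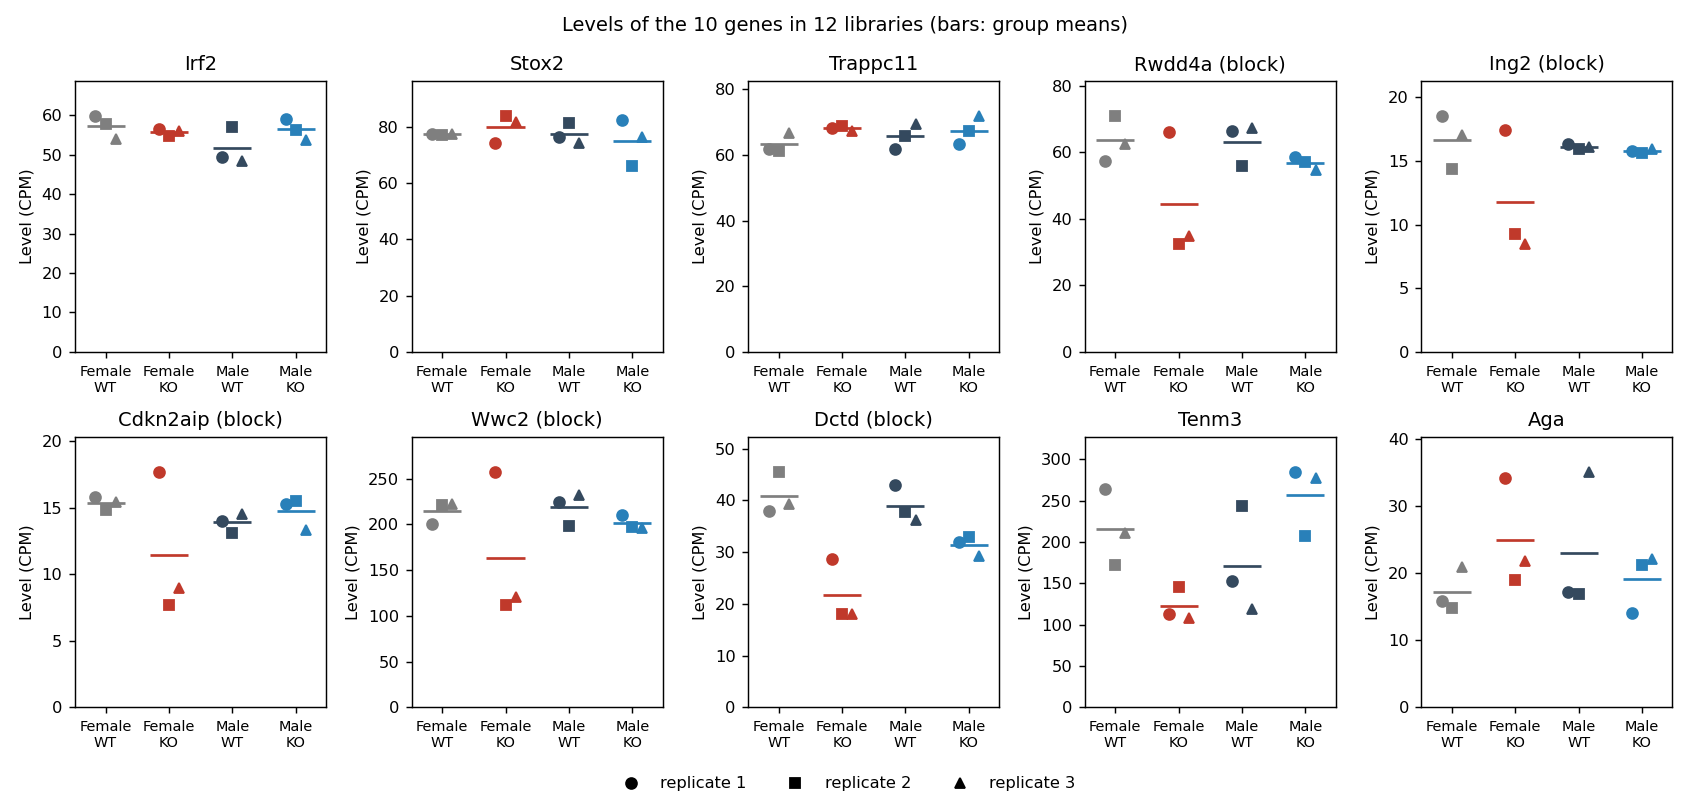
Levels in CPM of the 10 genes (1 panel each, y axis from 0) in the 4 groups, with 1 symbol per library and the group mean as a bar. In the 5 block panels the squares and triangles of female KO (Female_KO 2 and 3) lie at 45.3% to 61.3% of WT, apart from the circle of Female_KO 1, whereas Irf2, Stox2 and Trappc11 show no such gap.

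Over the 5 genes, the median level was 51.8% of WT in Female_KO 2 and 54.8% in Female_KO 3. On the log2 scale these are -0.94 and -0.85, with single genes from -1.12 to -0.79 and from -1.12 to -0.67. In the other 10 libraries the median of the 5 genes lay between -0.15 and 0.09. Its standard deviation over the 6 WT libraries was 0.0848. The 685 other autosomal genes of chromosome 8 with 1 CPM or more had a median of 0.02 in both libraries. Of all 12517 such autosomal genes, 2.55% in Female_KO 2 and 1.89% in Female_KO 3 had a log2 ratio of -0.5 or less. The 5 genes, selected on these levels, were all among them in both libraries, and 0 of the 5 were in the other 10 libraries. There the share of all such genes was 2.37%, 4.01% and 3.12% in female WT, 10.1% in Female_KO 1, 5.7%, 4.99% and 10.7% in male WT and 1.73%, 4.55% and 7.45% in male KO libraries.

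Before the edge, no gene from Irf2 to Trappc11 that was well counted was low in these libraries. Trappc11 was at 68.7 and 67.1 CPM (3072 and 2987 counts) in Female_KO 2 and 3 and at 68.3 CPM in Female_KO 1. WT libraries had 61.7, 61.1 and 66.8 CPM in females and 61.8, 65.8 and 69.4 CPM in males, and male KO libraries had 63.2, 67.3 and 71.7 CPM. Stox2 had 83.6 and 81.8 CPM and Irf2 54.7 and 56.0 CPM in the same 2 libraries, against 74.3 to 81.2 CPM and 48.5 to 59.7 CPM over the 6 WT libraries. In log2 ratios to WT the 3 genes were at 0.01 to 0.11 in Female_KO 2 and at 0.05 to 0.08 in Female_KO 3. Enpp6, which lies between Irf2 and Stox2 and encodes a choline phosphodiesterase, had only 35 to 86 counts per library, with ratios of -0.25 and -0.33 within the WT range of -0.34 to 0.35.

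Across the 174 bases between the starts, the log2 ratio of Rwdd4a minus that of Trappc11 was -1.04 in Female_KO 2 and -0.92 in Female_KO 3. In the other 10 libraries this difference lay between -0.36 and 0.29. Over 521 pairs of expressed autosomal genes that start within 1 kb of each other in opposite directions, the median absolute difference was 0.16 in Female_KO 2 and 0.14 in Female_KO 3. The pair was singled out after its values were seen, so its place among such pairs is not a test.

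**Figure D2:**
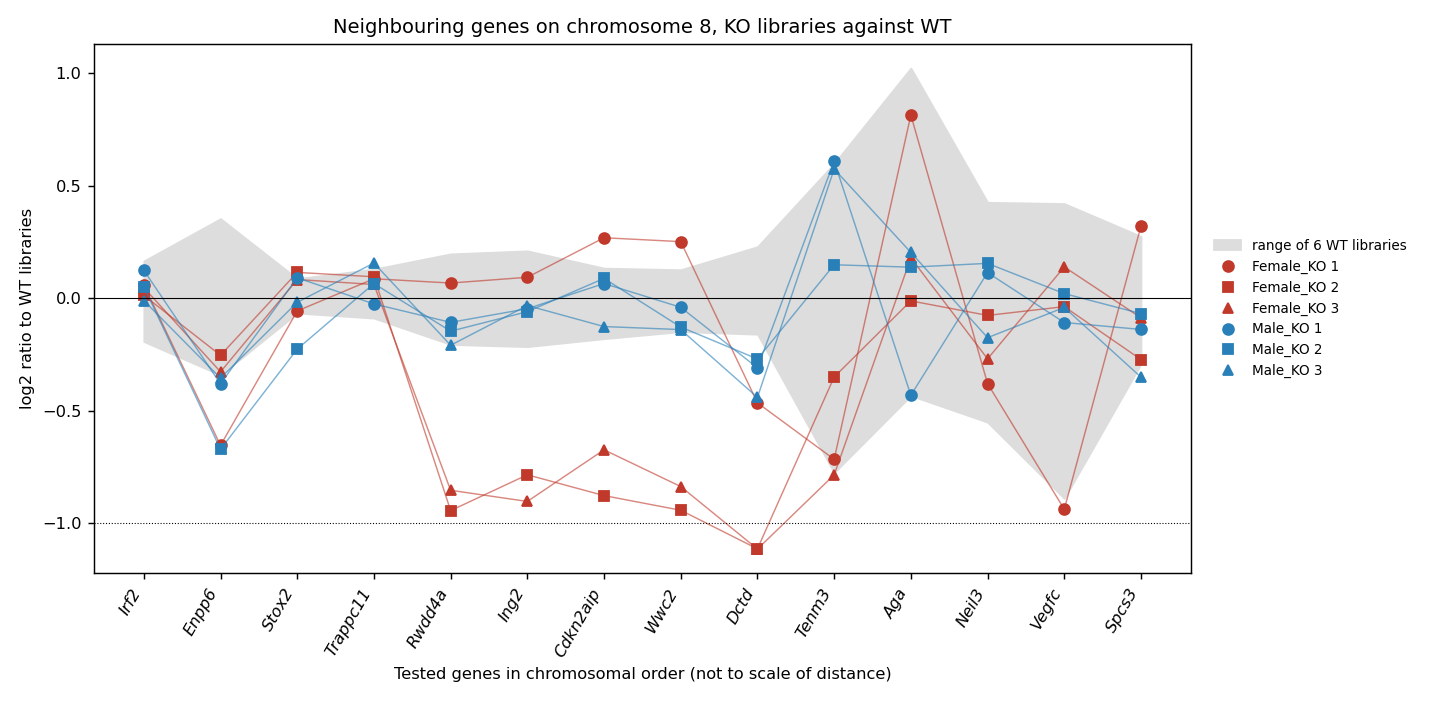
Log2 ratio to WT (y axis) of the 14 tested genes from Irf2 to Spcs3 in chromosomal order (x axis, not to scale) for the 6 KO libraries, over the range of the 6 WT libraries in grey. Female_KO 2 and 3 drop below the WT range at Rwdd4a and stay below it through Dctd. Female_KO 3 is also just below it at Tenm3, and Female_KO 2 lies slightly above it at Stox2. From Tenm3 on the grey range is wide.

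The far edge is less sharp, since the next genes vary between libraries by themselves. Tenm3, which begins 84.0 kb after Dctd in coordinates and spans 1297 kb, had 264, 172 and 210 CPM in female WT and 152, 243 and 119 CPM in male WT libraries. Female KO libraries had 113, 146 and 108 CPM and male KO libraries 285, 207 and 278 CPM. Female_KO 2 and 3 were at 75.5% and 55.8% of WT, but Female_KO 1, which was not low for the other 4 genes, was at 58.6% and Male_WT 3 at 57.1%. Tenm3 is read from its far end, which lies more than 1 Mb from Dctd. With a coefficient of variation of 28.7% over WT libraries, compared with 6.43% to 9.18% for the 5 block genes, a drop of the block's size in Tenm3 could not be told from the spread between libraries.

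Aga, the next tested gene, starts 5.37 Mb after the end of Dctd. It had 15.9, 14.9 and 20.9 CPM in female WT, 17.2, 16.9 and 35.1 CPM in male WT, 34.2, 19.1 and 21.8 CPM in female KO and 14.1, 21.2 and 22.2 CPM in male KO libraries. Female_KO 2 and 3 were at 94.6% and 108% of WT, within the 70.1% to 205% of single WT libraries, where the coefficient of variation was 37.9%. Female_KO 1 and Male_WT 3, which stand apart over all genes, were high for Aga and low for Tenm3. The nearest 3 tested genes beyond it, the DNA glycosylase Neil3, the lymphatic growth factor Vegfc and the signal peptidase subunit Spcs3, were at 93.0%, 94.6% and 82.3% of WT in Female_KO 2 and at 81.1%, 107% and 93.6% in Female_KO 3. On the other side, the primase-polymerase Primpol was at 112% in Female_KO 2 and at 97.0% in Female_KO 3. Gm16675, with 8 to 36 counts, was too low to place.

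Stretches of neighbouring genes that deviate together were sought in each library over 12489 ordered autosomal genes. A run was a row of consecutive genes with a log2 ratio to WT of -0.5 or less, or of 0.5 or more. In Female_KO 2 the block formed a low run of 5 genes, and in Female_KO 3 it formed one of 6 genes that took in Tenm3. In the other 4 KO libraries the low run that would hold Wwc2 had 0 genes. Female_KO 3 had no other low run of 4 or more genes, and Female_KO 2 had 1, the skin genes Prr9, Sprr2k, Sprr1a, Lce1h and Crct1 on chromosome 3. Those genes also formed the longest low run in Male_KO 3.

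Runs of this length were not limited to the block. Female_KO 1 had a low run of 6 genes on chromosome 18, and Male_WT 3 one of 6 genes with Igf2 and H19 on chromosome 7. High runs reached 11 genes in Male_WT 3, made up mostly of Hoxa genes, and 10 and 9 genes of the protocadherin clusters on chromosome 18 in Male_KO 2 and Male_KO 3. The longest low run had 3 to 4 genes in the WT libraries other than Male_WT 3. The block of the 5 genes covered 608 kb. The low run of Female_KO 1 covered more than this, from 57545361 to 59411336 on chromosome 18. Taken with Tenm3, the run of Female_KO 3 was longer still, from 47533645 to 49522824. The median log2 ratio was -0.58 in the Female_KO 1 run, against -0.94 and -0.85 in the runs of Female_KO 2 and 3. Female_KO 1 had 10.1% of autosomal genes at -0.5 or less, against 2.55% and 1.89%. Neither the block nor the Female_KO 1 run is made of 1 gene family. A span of 608 kb or mixed content was thus not particular to the block.

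**Figure D3:**
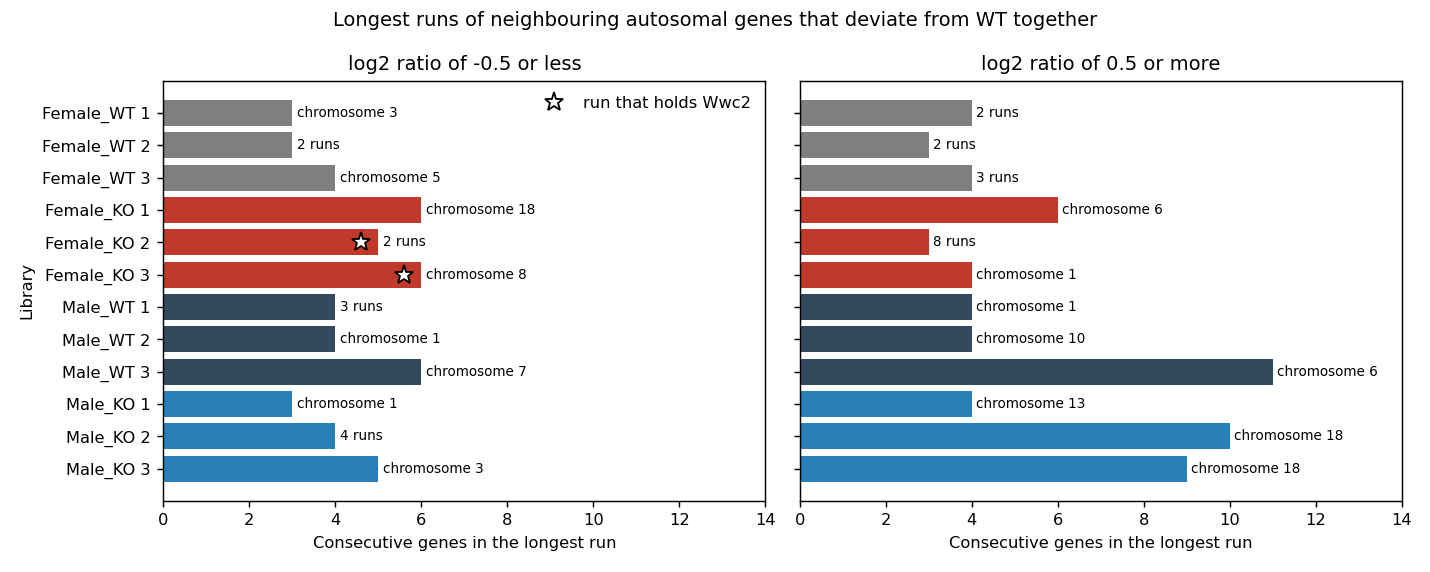
Number of consecutive genes (x axis) in the longest low run (left) and the longest high run (right) of each of the 12 libraries (y axis), labelled with the chromosome or with the number of runs of that length. Stars mark the runs that hold Wwc2, of 5 genes in Female_KO 2 and 6 genes in Female_KO 3.

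The threshold of the run did not set its near edge. With -0.4 or -0.6 in place of -0.5, or with a minimum of 5 CPM, the runs in Female_KO 2 and 3 kept Rwdd4a as the first gene and 5 and 6 genes. Against the same-sex WT libraries alone, Tenm3 joined the run in Female_KO 2 as well, which made it 6 genes in both.

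In the fit to all genes, the female KO group mean of the 5 genes mixed 2 low libraries with 1 that was not low. The log2 changes from WT to KO in females were -0.52 ± 0.23 for Rwdd4a, -0.50 ± 0.23 for Ing2, -0.42 ± 0.25 for Cdkn2aip, -0.39 ± 0.25 for Wwc2 and -0.92 ± 0.17 for Dctd (SE, 3 libraries against 3). Without Female_KO 1, which leaves only the 2 low libraries, they were -0.92, -0.90, -0.88, -0.88 and -1.17. Irf2, Stox2 and Trappc11 had changes of -0.04 ± 0.08, 0.05 ± 0.08 and 0.11 ± 0.07, Tenm3 one of -0.81 ± 0.25 and Aga one of 0.54 ± 0.32. Without Female_KO 1 these were -0.04, 0.10 and 0.11, -0.76 for Tenm3 and 0.25 for Aga. Because this contrast was in view when the genes were chosen, no p-value is given for them. In edgeR's test 0.0192% of the 15613 genes passed in females (0.0128% as lower), and 0 of the 10 genes were among them. DESeq2 called 7 of the 15613 genes in females, with Dctd among them. Without Female_KO 1, edgeR called 6 of 15918 genes, with Rwdd4a, Wwc2 and Dctd among them. These calls use the libraries in which the genes were chosen, so they are not a test. All 3 KO libraries lay below all 3 WT libraries for 2 of the 10, Dctd and Tenm3, against 9.86% of all tested genes. For Trappc11 all 3 lay above, at 67.1 to 68.7 CPM against 61.1 to 66.8 CPM in female WT. The share of all genes with that upward order was not computed.

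In males the same genes were fitted in libraries for which no reduction had been noted. The block was chosen on levels seen in all libraries, and the low ones were female KO libraries. That male libraries were not among the low ones was thus known when the genes were chosen. The male p-values of the block genes are therefore given as a description, not as an independent test. Of the 10, 0 passed edgeR's quasi-likelihood test with adjustment over all genes (0.0192% of all genes passed, 0.0128% as lower), 1 had an unadjusted p under 0.05 (1554 of all 15613 genes had one) and 0 were among the 136 genes that DESeq2 called. Rwdd4a had a log2 change of -0.16 ± 0.22 (SE, edgeR adjusted p 0.848), Ing2 of -0.03 ± 0.23 (0.974), Cdkn2aip of 0.08 ± 0.25 (0.933) and Wwc2 of -0.12 ± 0.25 (0.905). These errors are wide because the 4 groups share 1 estimate of the spread, which the disagreement between the female KO libraries raises. Without Female_KO 1, with both low libraries kept, the male SE of these 4 genes was 0.0758 to 0.112. In a fit to the 6 male libraries alone, the SE of the 4 genes was 0.0859 to 0.130, at nearly the same changes. Dctd had a change of -0.31 ± 0.17 (edgeR adjusted p 0.549), with the 3 KO libraries below the 3 WT libraries. Its SE was 0.107 in the fit to male libraries alone. Without Male_WT 3 the male changes were -0.11 for Rwdd4a, -0.03 for Ing2, 0.12 for Cdkn2aip, -0.07 for Wwc2 and -0.36 for Dctd. Ing2 also had no overlap in males, but its group means differed by little, 16.1 ± 0.181 against 15.8 ± 0.155 CPM (SD, n = 3). Such an order in males was seen for 6.56% of tested genes.

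**Figure D4:**
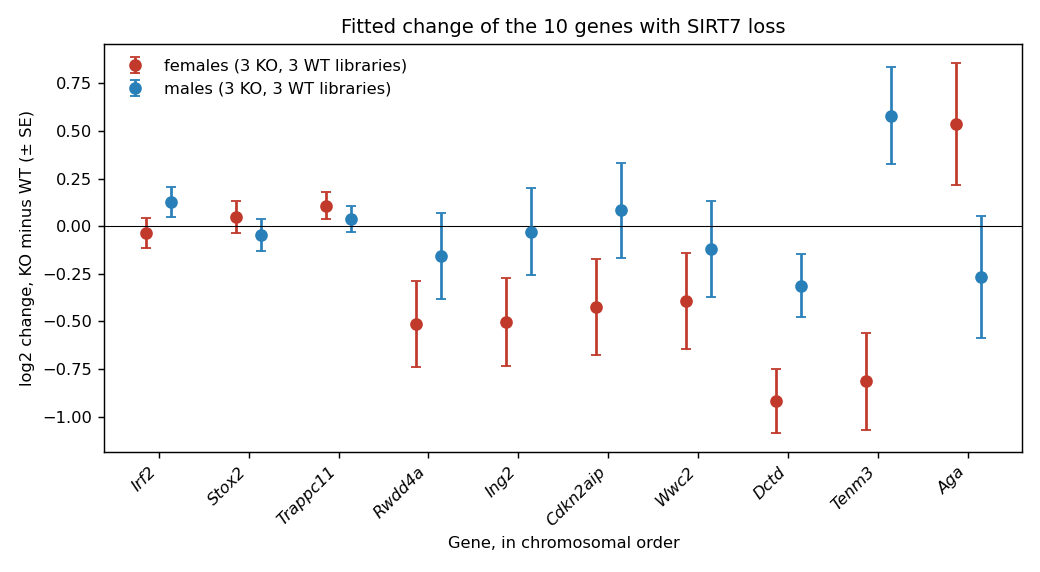
Fitted log2 change from WT to KO (y axis, points, with bars of 1 SE) for the 10 genes in chromosomal order (x axis), in females and in males, from the model over 12 libraries. The female values of the 5 block genes lie between -0.92 and -0.39 and the male values between -0.31 and 0.08, and the female values average Female_KO 1 with the 2 low libraries.

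Beyond the block, the fitted changes of Tenm3 and Aga were opposite in sign between the sexes. Tenm3 had a log2 change of 0.58 ± 0.25 in males (edgeR adjusted p 0.495) beside -0.81 ± 0.25 in females. Aga had -0.27 ± 0.32 in males (edgeR adjusted p 0.810), which became 0.18 without Male_WT 3. The female change of Aga fell from 0.54 to 0.25 without Female_KO 1. The difference between the female and male changes was -1.39 ± 0.36 for Tenm3 and between -0.61 and -0.27 for the 5 block genes, or between -0.97 and -0.77 without Female_KO 1. No test of these differences is given, because they use the libraries in which the genes were chosen. Across all 15613 genes, 0 passed edgeR's test of this difference, with 868 at an unadjusted p under 0.05 and 3 called by DESeq2.

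Within the block, the profile of each gene over the 12 libraries was set against the mean standardised profile of the other 4. Pearson correlations were 0.970 for Rwdd4a, 0.969 for Wwc2, 0.935 for Cdkn2aip, 0.925 for Ing2 and 0.859 for Dctd. The neighbours had 0.333 for Tenm3, 0.0381 for Aga, -0.0634 for Irf2, -0.341 for Trappc11 and -0.504 for Stox2 with the profile of all 5. The points share libraries, and the values rest on Female_KO 2 and 3. Over the other 10 libraries they were 0.704 for Rwdd4a, 0.629 for Wwc2, 0.309 for Cdkn2aip, 0.00356 for Ing2 and 0.00357 for Dctd. For the neighbours they were -0.701 for Tenm3, 0.212 for Aga, -0.176 for Irf2, -0.416 for Trappc11 and -0.0181 for Stox2.

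Outside the 10 genes, the most similar profiles among 12958 genes were those of Tmtc3 (r = 0.887), l7Rn6 (0.864), Ctse (0.859), Tmed7 (0.838) and Tln1 (0.838), over 12 libraries. None of the 5 lies on chromosome 8, where the highest correlation was 0.790. Tmtc3, a mannosyltransferase of the endoplasmic reticulum, had log2 ratios of -0.31 and -0.29 in Female_KO 2 and 3, and Tln1, the integrin activator talin, had -0.29 and -0.12. Only Ctse, the protease cathepsin E, at a mean of 1.22 CPM, reached -0.92 in Female_KO 2, with -0.36 in Female_KO 3. Without these 2 libraries the correlations of the 5 genes were 0.00367 to 0.569. By Spearman's correlation, 0 of the 5 were again among the 5 most similar.

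Genes that work with the block genes or resemble them were followed as 7 lists. By edgeR's test over all genes, 0 members of any list passed in females or in males, and DESeq2 called 0 as well. Of 26 genes of pyrimidine deoxynucleotide supply, the pathway of Dctd, 21 had a negative change in females, with a median of -0.31, and 23 in males, with a median of -0.17, beside medians of 0.01 and -0.01 over all tested genes. At an unadjusted p under 0.05 there were 9 in females and 3 in males, where 1127 and 1554 of all 15613 tested genes had such a p. Mthfd1, a folate enzyme, had a log2 change of -0.41 ± 0.12 in females (SE, edgeR adjusted p 0.635), and Cad, which opens pyrimidine synthesis, of -0.31 ± 0.10 (0.635). Unlike Dctd, both were lowest among the female KO libraries in Female_KO 1, at 91.3 and 150 CPM, against 97.5 and 180 CPM in Female_KO 2.

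Of 17 members of the Sin3-HDAC1 complex, to which Ing2 belongs, 10 were negative in females (median -0.01) and 12 in males (-0.07). The smallest p in females was that of Rbbp7, a histone-binding subunit, at -0.18 ± 0.08 (SE, edgeR adjusted p 0.635). Of 25 genes of the Hippo pathway and its targets, 13 were negative in females, with a median of 0.00, and 16 in males, with a median of -0.10. Mob1a, a co-activator of the LATS kinases, was at -0.19 ± 0.07 in females (0.635).

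Of 14 genes of the ARF-p53 axis, in which Cdkn2aip acts, 11 were positive in females (median 0.38) and 5 in males (-0.12). The apoptosis gene Pmaip1 had a log2 change of 1.38 ± 0.58 in females (SE, edgeR adjusted p 0.635), with 35.3 CPM in Female_KO 1, 15.9 CPM in Female_KO 2 and 24.0 CPM in Female_KO 3, against 5.16 to 16.5 CPM in female WT. In males its change was -1.78 ± 0.60 (edgeR adjusted p 0.457). Bbc3, another apoptosis gene, was at 0.63 ± 0.26 (0.635). Of 13 other TRAPP subunits, 10 were positive in females, with a median of 0.18, and 4 in males, with a median of -0.04. Trappc6a was at 0.59 ± 0.20 in females (0.635), while Trappc11 itself was at 0.11.

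Of 11 tested paralogues of the 10 genes, 9 were negative in females (median -0.14) and 3 in males (0.08). The ING family members Ing5 and Ing3 were at -0.31 ± 0.14 and -0.33 ± 0.16 in females (SE, edgeR adjusted p 0.635 for both). Of 14 tested interferon-stimulated genes, downstream of the IRF family, 9 were negative in females (median -0.11) and 4 in males (0.12), and B2m had the smallest p, at 0.15 ± 0.10 (0.664).

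Markers of other cell types did not set Female_KO 2 and 3 apart from all other libraries. Summed over the markers found, skeletal muscle stood at 109 and 197 CPM in these libraries, against 14.9 to 244 CPM elsewhere. Epithelium stood at 43.1 and 45.8 CPM against 8.64 to 53.4 CPM, endothelium at 9.85 and 14.9 CPM against 7.49 to 15.1 CPM, and macrophages at 19.8 and 16.5 CPM against 13.2 to 90.9 CPM. Both values lay within the range of the other libraries for these 4 lists and for the neuron, erythroid and fibroblast lists. In bulk RNA, fewer cells that express a gene and less RNA per cell cannot be told apart. The part of cell composition in the level of the block genes was not tested.

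Some reads could be shared with overlapping genes if strand was not used in counting. In GENCODE M21, Wwc2 overlaps Cldn22 on the opposite strand, and Cldn22 had at most 2 counts. Ing2 and Cdkn2aip each overlap a noncoding RNA on the opposite strand that has no row in the table, AA386476 and E030037K01Rik. Rwdd4a, Trappc11 and Dctd overlap no other listed gene.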

How the data were processed

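RNA of cultured embryonic fibroblasts was measured in 12 libraries, 3 per group. TRIZOL served for RNA extraction, per the labels' protocols, and a provider (NovaGene) selected polyA RNA and made and sequenced the libraries. Per the submitters' processing notes, HISAT2 2.1.0 and StringTie 1.3.3 were among the tools, beside Trimmomatic 0.36, FastQC 0.11.3, DESeq2 1.32.0 and SAMtools 0.1.19. The builds are listed there as GRCm38 and mm10, and no role is stated. The authors deposited raw read counts per gene for 24421 genes, all 12 columns matching a sample title. The counts are labelled as calibrated RNA-seq. Only TMM scaling was applied here, so levels and percentages of WT are relative and would not show a shift of all genes together. The sources used here do not say how counting handled strand and multi-mapping reads. Among counts of 2 to 19, 80.9% to 89.8% were even per library, so mates of a fragment may each have been counted, and counting error may be larger than the counts imply.

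Genes were filtered with filterByExpr, TMM set the library scale, and 1 robust quasi-likelihood model of 4 group means was fitted to all libraries (edgeR 4.0.16, limma 3.58.1, R 4.3.3), with Benjamini-Hochberg adjustment over 15613 tested genes and a threshold of 0.05. Tests were two-sided, and the fit was tested on simulated data. DESeq2 1.42.0 was an alternative. The ratio of a library to WT was log2(CPM + 0.5) minus the mean of the 6 WT libraries, a WT library being set against the other 5. Percentages of WT are ratios of CPM without the pseudocount. Runs of neighbours used 12489 autosomal genes of 1 CPM or more with RefSeq positions (GRCm38.p6), and 99.7% of tested genes had a position. Promoter letters are from RefSeq on the same build. Always named were the 10 genes and Sirt7, then tested genes between Irf2 and Aga, the nearest 3 tested genes on either side, up to 3 genes of smallest p per list, the 5 genes of most similar profile and genes of longest runs. Of these, 2 genes are not reported here. The 10 genes and all lists were chosen with earlier results of these data known. Alternatives were other size factors, another tool, no filter, a replicate block, 1 sex alone, each library left out, and for ratios and runs other references, scalings, pseudocounts and thresholds. Since no label says that the replicates came from separate embryos or cultures, the spread behind each p-value is that between these libraries alone and may be technical.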

Additional observations from a re-analysis of the deposited data

How the results depend on the processing

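The number of genes called in females was 3 in the model over all libraries, 7 with the DESeq2 test and 1 with female libraries alone. It ranged from 1 to 6 when single libraries were left out and was 6 without Female_KO 1. In males it was 3, against 136 with the DESeq2 test and 1 with male libraries alone, with a range of 1 to 4 over single libraries left out. For the difference between the sexes it was 0, against 3 with the DESeq2 test. Small changes in males turned sign when 1 library was left out: Trappc11 (range -0.0019 to 0.083; -0.00040 without Male_WT 1 and -0.0019 without Male_KO 3), Stox2 (-0.12 to 0.037, the latter without Male_KO 2) and Aga (-0.44 to 0.18, the latter without Male_WT 3). The median ratio of the 5 block genes in Male_WT 3 was 0.10 against the same-sex WT libraries and 0.00 against all. For the other libraries this median moved by less than the spread between WT libraries under another reference, scaling or pseudocount. Same-numbered libraries were not treated as pairs: 7 of 18 correlated above 0.1 (range -0.47 to 0.47). All 3 did so between female WT and male KO (0.20 to 0.26), which are not compared, but not within either sex, and the best match had the same number in 14 of 36 cases. With the replicate block 2 genes were called in females and 2 in males. Depth did not limit the block genes (345 counts or more), but Enpp6 and Gm16675 were too low to place.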
